A study of Homo sapiens with 8 samples.

Results

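The genes described here are 35 enzymes and regulators of the tricarboxylic acid (TCA) cycle outside complex II, of pyruvate dehydrogenase, of the reactions that refill the cycle, and of the transfer of amino groups between glutamate and aspartate. They form a list of gene symbols grouped by pathway, and all 35 were matched to an Ensembl identifier among the 58051 genes of the count files. Expression was measured in MDA231 cells (MDAMB231 in the labels), a triple-negative human breast cancer line, in 3 groups. Parental cells were not modified (n = 2). SDHBKO cells carried a knockout of SDHB, the iron-sulfur subunit of complex II, made with TALENs against its exon 1 and selected with hygromycin (n = 3). SDHBKO SDHAlow cells carried the same knockout and, in addition, a knockdown of SDHA, the flavoprotein subunit, by an shRNA selected with puromycin (n = 3). Cells were grown in full medium without any further treatment and were collected before they were confluent. The labels give biological replicate numbers without saying whether they stand for separately derived clones, so the p-values measure the spread between these samples, and the effect of an edit cannot be told apart from that of its selection. Libraries read the 3' ends of polyadenylated RNA.

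The TCA cycle oxidizes acetyl groups from pyruvate dehydrogenase to carbon dioxide and passes the electrons on as NADH or, at complex II, as reduced flavin. Carbon leaves it for synthesis as citrate, which feeds lipids, and as oxaloacetate, which glutamate-oxaloacetate transaminases turn into aspartate, a building block of proteins, purines and pyrimidines. Anaplerotic enzymes replace what leaves. When complex II does not work, the cycle is interrupted between succinate and fumarate, and proliferating cells are known to depend on pyruvate carboxylation and on reductive use of glutamine for their aspartate. Expression of these genes was compared in SDHBKO cells against parental cells, in SDHBKO SDHAlow cells against SDHBKO cells, and in SDHBKO SDHAlow cells against parental cells.

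Between 773042 and 1427141 reads per library were counted on genes, and 3 counts corresponded to 2.24 to 4.10 normalized CPM (counts scaled to the same total in every library). Low counts limited the list before any comparison. Of the 35 genes, 27 had a mean normalized count above 5 and were tested among 7550 genes, and 8 did not pass. SDHA, which checks the labels, was counted 64 and 69 times in parental cells, 108, 121 and 140 times in SDHBKO cells, and 7, 17 and 16 times in SDHBKO SDHAlow cells. It was lower in SDHBKO SDHAlow than in SDHBKO cells by a log2 fold change of -3.46 (SE 0.28, edgeR adjusted p = 1.2e-07). SDHB had 0 to 4 counts in every library and was not tested, and its 3' reads lie outside the targeted exon and do not check the edit. All 6 markers of the line had counts, with a summed 4183 to 4964 CPM, but S100A4 had only 3 to 13 counts per library. ESR1 and PGR were at 0 counts in all libraries. The other 5 of 7 luminal markers had counts, up to 20 for GATA3, and the luminal list summed to 13.3 to 25.6 CPM. The 4 leukocyte markers were at 0, as were 3 of 4 fibroblast and 2 of 3 endothelial markers, where COL1A1 reached 4 counts and PECAM1 2. Reads that mapped to several places were a larger share in SDHBKO libraries (14.5% to 16.1%) than in parental libraries (10.2% to 10.9%) or SDHBKO SDHAlow libraries (9.72% to 12.3%), and their part in the results was not tested.

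Transcripts of the list were dominated by a few genes. MDH2, the mitochondrial malate dehydrogenase, had the highest mean level over the 8 libraries with 1019 CPM, followed by GOT2, the mitochondrial glutamate-oxaloacetate transaminase, with 601 CPM and IDH3B, the beta subunit of the NAD-dependent isocitrate dehydrogenase, with 469 CPM. Together these 3 genes held 61.9% of the counts of the list. The list as a whole took 0.303% to 0.368% of all gene counts in each library, with 0.368% and 0.359% in parental cells, 0.305%, 0.358% and 0.312% in SDHBKO cells, and 0.315%, 0.303% and 0.350% in SDHBKO SDHAlow cells. The share in parental libraries was above that of all 6 other libraries by a small margin. Below these genes came GOT1, the cytosolic transaminase (188 CPM), CS, citrate synthase (131 CPM), and GPT2, the mitochondrial alanine transaminase (116 CPM). Each transcript gives reads from its 3' end only, so levels are not divided by length, and their order is a description of these libraries.

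The mitochondrial and cytosolic forms of the same reaction were measured at very different levels. MDH2 had 62.9 times the pooled counts of MDH1, the cytosolic malate dehydrogenase, with a ratio of 45.5 to 95.5 in single libraries. GOT2 had 3.26 times the counts of GOT1, with a ratio of 2.58 to 4.16. The GOT2 to GOT1 ratios overlapped between all groups. The MDH2 to MDH1 ratio was 54.4 and 57.1 in parental cells and 61.2, 82.2 and 95.5 in SDHBKO SDHAlow cells, which did not overlap, and its range in SDHBKO cells (45.5 to 65.5) overlapped both. MDH1 had only 11 to 19 counts per library. The final 300 bases held 32.0% GC in MDH1 and 41.3% in MDH2, and measured level moved with this composition, as described next. Reads that mapped to several places were left out, so these ratios compare counts and may differ from ratios of the transcripts. These enzymes form the malate-aspartate shuttle, which carries reducing equivalents across the inner mitochondrial membrane.

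Measured level moved with the base composition of the 3' end that the libraries read. Over the 35 genes, Spearman's rho between mean CPM and GC in the final 300 bases of the canonical transcript was 0.68, against 0.080 over 19629 protein-coding genes, and it was 0.42 over the 27 genes tested, against 0.35 over 7164 protein-coding genes tested. These are correlations across genes measured in the same libraries, and genes are not independent replicates. All 20 genes with a GC content of 35% or more passed the filter, with a median of 68.8 CPM. Of the 15 genes below 35%, 7 passed, with a median of 5.52 CPM over all 15. The same cut, which was chosen after the values were seen, split all protein-coding genes into 40.8% and 27.7% that passed. The 8 genes below the filter were DLD, SUCLG2, SUCLA2, PDK1, PDK4, PDP1, ME1 and ME2, and all were in the low-GC class.

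Several of the genes that could not be tested are central to the pathway. SUCLA2, the ATP-forming beta subunit of succinate-CoA ligase, was at 0 counts in all 8 libraries, as was PDK4, a pyruvate dehydrogenase kinase. SUCLG2, the GTP-forming beta subunit, had 1 to 12 counts, so of the ligase only the shared alpha subunit SUCLG1 was measured well. DLD, the dihydrolipoamide dehydrogenase that pyruvate and 2-oxoglutarate dehydrogenase share, had 0 to 8 counts. The malic enzymes ME1 and ME2, which turn malate into pyruvate in the cytosol and in mitochondria, had 0 to 5 and 0 to 4 counts, and PDP1, a phosphatase that activates pyruvate dehydrogenase, had 1 to 8. A count of 0 allows up to 2.24 to 4.10 CPM per library, for counting error only. These values therefore do not show that the transcripts were absent, and the reason for the low counts was not tested.

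PDK1, a kinase that inhibits pyruvate dehydrogenase and a known target of hypoxia-inducible factors, was also below the filter. Its counts set parental cells apart from both other groups, which overlapped each other. Parental libraries held 11 and 9 of its counts, SDHBKO libraries 3, 0 and 2, and SDHBKO SDHAlow libraries 0, 4 and 0. Both parental libraries lay above all 6 others. In a fit without a filter on low counts the log2 fold change was -2.54 in SDHBKO cells against parental cells (edgeR adjusted p = 0.17) and -3.15 in SDHBKO SDHAlow cells against parental cells (adjusted p = 0.11), neither below 0.1. This gene is named after its values were seen, and its fold changes rest on counts near the floor.

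None of the 27 genes tested passed an adjusted p of 0.1 in SDHBKO cells against parental cells, where 418 of all 7550 genes did (5.54%). By edgeR, 4 of the 27 had an unadjusted p below 0.05, and DESeq2 called 0 of the 13 members for which it gave an adjusted p. The share of all genes below the unadjusted cut was not counted in any comparison, so counts at it have no background. The median log2 fold change of the 27 genes was -0.09, against -0.00072 over all genes tested. Of the 27, 12 were fitted above 0 and 15 below, and 49.9% of all genes tested were above 0. The groups did not overlap in 15 of 27 (55.6%), 6 higher and 9 lower in SDHBKO cells, whereas 37.9% of all genes tested did not overlap, 19.3% higher and 18.6% lower. The 95% interval of the difference lay within 1 unit on the log2 scale in 11 of the 27, and for the others a doubling or a halving was within the interval.

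In SDHBKO SDHAlow cells against SDHBKO cells, again 0 of 27 were called by edgeR, against 1.51% of all genes tested, and 4 had an unadjusted p below 0.05. DESeq2 called 1, IDH3B, of the 19 members for which it gave an adjusted p, and 128 of 4492 genes in all. The median was 0.08, against 0.01 over all genes tested. In 5 of 27 (18.5%) the groups did not overlap, 2 higher and 3 lower, against 17.4% of all genes tested (8.7% higher and 8.69% lower), and the interval lay within 1 log2 unit in 13. In SDHBKO SDHAlow cells against parental cells, 1 of 27 was called, IDH3B, which was lower, against 0.914% of all genes tested in either direction and 0.689% lower, and 2 had an unadjusted p below 0.05. The median was 0.03, against 0.02 over all genes tested, and 9 of 27 (33.3%) did not overlap, against 30.7% of all genes tested. The interval of the difference lay within 1 log2 unit in 12 of the 27. Each pair of comparisons shares a group of samples, so their values stand side by side and were not correlated.

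**Figure D1:**
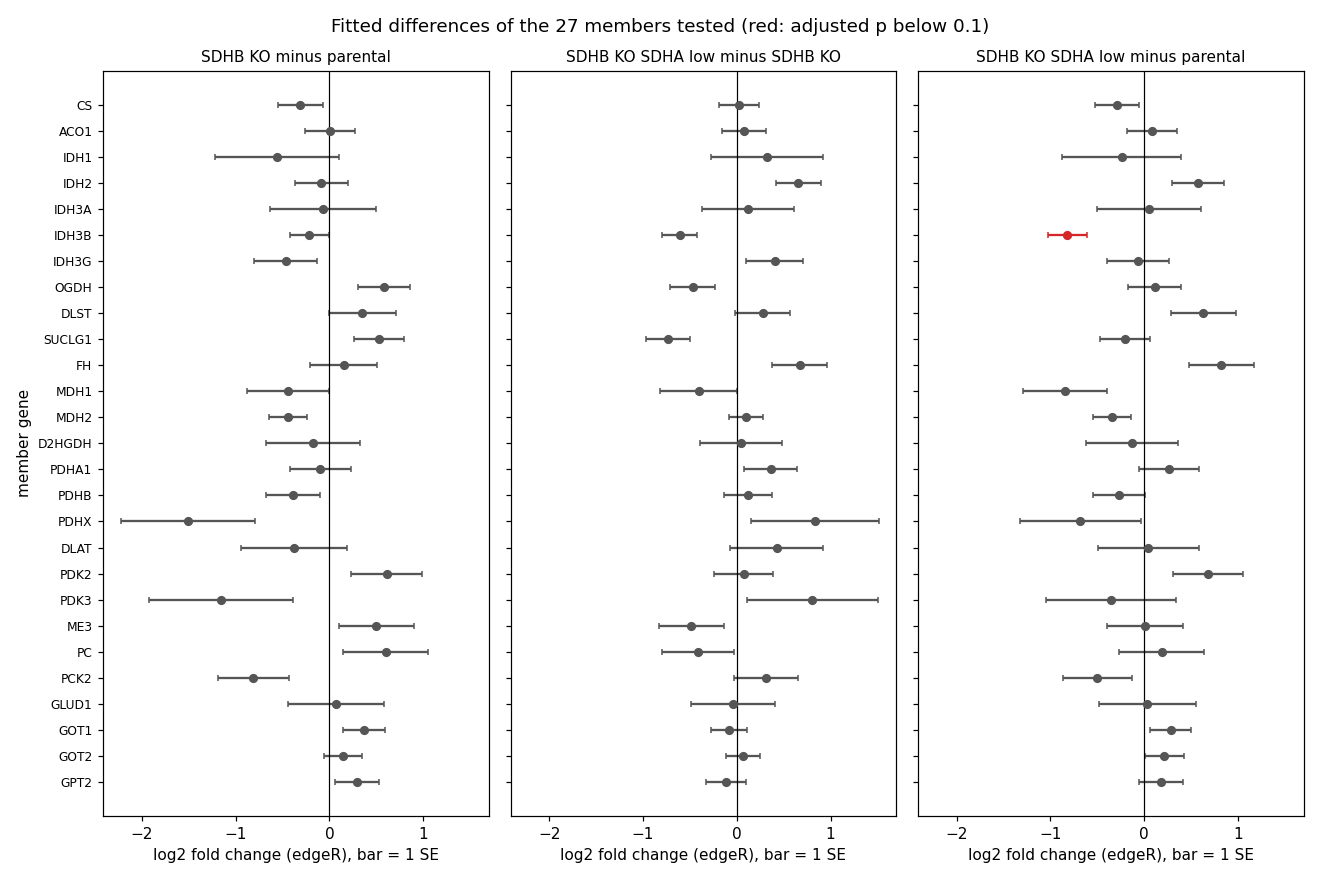
Fitted log2 fold change with its standard error (bar) for the 27 genes tested, in SDHBKO against parental, SDHBKO SDHAlow against SDHBKO, and SDHBKO SDHAlow against parental cells, in red where the edgeR adjusted p was below 0.1. The only red point is IDH3B in the third comparison, and the longest bars belong to PDHX and PDK3, which had few counts.

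The enzymes from citrate to 2-oxoglutarate all passed the filter. IDH3B (ENSG00000101365, chr20:2658395-2664219, minus strand, GRCh38) encodes a noncatalytic subunit of the enzyme that makes 2-oxoglutarate and NADH in the forward direction of the cycle. Its level was 612 and 584 CPM in parental cells, 480.3, 521 and 546 CPM in SDHBKO cells, and 280.0, 410.4 and 321 CPM in SDHBKO SDHAlow cells. The 3 groups did not overlap, with parental cells highest and SDHBKO SDHAlow cells lowest. Against parental cells, it fell in SDHBKO SDHAlow cells by a log2 fold change of -0.82 (SE 0.21, 95% interval -1.26 to -0.39, edgeR adjusted p = 0.092). The difference between SDHBKO SDHAlow and SDHBKO cells was -0.61 (SE 0.19, adjusted p = 0.17) and that between SDHBKO and parental cells -0.21 (SE 0.21, adjusted p = 0.65), and neither passed.

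The call of IDH3B was close to the threshold. Among the alternative settings, that of an adjusted p below 0.05 reuses the reported fit and repeats its fold change. Its log2 fold change against parental cells was below 0 in all 18 alternative settings, from -1.0 to -0.71, but the call was kept in only 6 of them and lost in 12, with adjusted p-values from 0.0086 to 0.85. It was lost on leaving out any single library except SDHBKO SDHAlow replicate 2, the deepest, without which the adjusted p was 0.0086 against parental cells and 0.011 against SDHBKO cells. This library also differed most from its replicates over all genes. The chi-square per degree of freedom between counts of 2 replicates was 10.6 and 11.3 with replicate 2, and 3.28 between replicates 1 and 3. That measure grows with depth, and the part of either in the call was not tested. Leaving out parental replicate 1 gave the adjusted p of 0.85, in a fit with a single parental library.

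**Figure D2:**
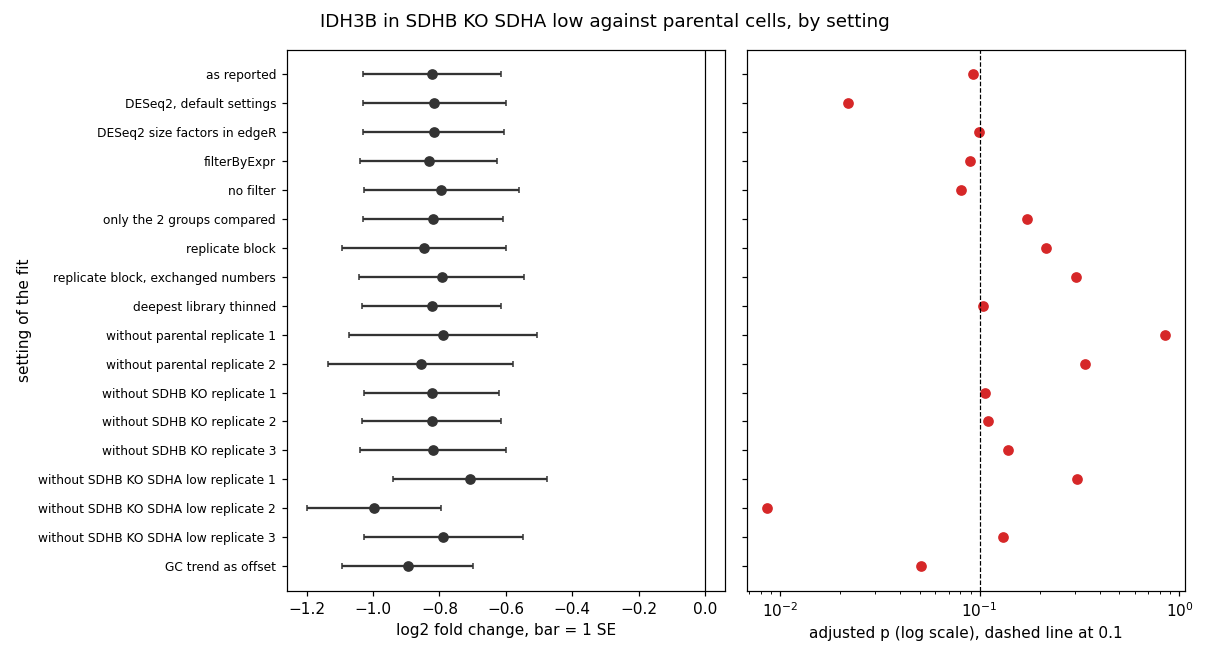
Log2 fold change of IDH3B with its standard error (left) and its adjusted p on a log scale with a dashed line at 0.1 (right), in SDHBKO SDHAlow against parental cells, for the reported fit and 17 other fits. The fold changes stay between -1.0 and -0.71, while the adjusted p lies on both sides of the line.

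The other subunits of this enzyme, the catalytic IDH3A and the regulatory IDH3G, were not called in any comparison, with log2 fold changes against parental cells of 0.05 (SE 0.55) and -0.06 (SE 0.33) in SDHBKO SDHAlow cells. IDH3A had only 6 to 20 counts per library. IDH2, the NADP-dependent mitochondrial isocitrate dehydrogenase, which can also run in the reductive direction, had 60.2 and 53.1 CPM in parental cells, 57.5, 56.7 and 46.4 CPM in SDHBKO cells, and 68.8, 83.6 and 100.3 CPM in SDHBKO SDHAlow cells. All 3 SDHBKO SDHAlow libraries lay above the 5 others. The log2 fold change was 0.66 (SE 0.24) against SDHBKO cells, with an adjusted p of 0.26 by edgeR's quasi-likelihood test, and 0.57 (SE 0.28) against parental cells, with an adjusted p of 0.41. IDH1, the cytosolic form, had 2 to 12 counts and overlapped between all groups, and the sign of its difference from parental cells turned without parental replicate 1 (from -0.56 to 0.30 in SDHBKO and from -0.24 to 0.62 in SDHBKO SDHAlow cells).

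Since both transcripts come from the same libraries, their ratio does not depend on the normalization. The counts of IDH3B were 10.2 and 11 times those of IDH2 in parental cells, 8.36, 9.20 and 11.8 times in SDHBKO cells, and 4.07, 4.91 and 3.20 times in SDHBKO SDHAlow cells. The ratio was lower in all 3 SDHBKO SDHAlow libraries than in any other, with means of 10.6 ± 0.58 (SD, n = 2), 9.77 ± 1.78 (n = 3) and 4.06 ± 0.86 (n = 3). This pair was chosen after the values were seen, so no test is given. The ratio of IDH3B to IDH3G did not separate the groups, with 6.87 and 8 in parental cells and 3.52, 10 and 2.77 in SDHBKO SDHAlow cells. That of IDH3B to IDH3A, on few counts, was 25.8, 27.5 and 41.1 in SDHBKO SDHAlow cells. It lay below the parental values (44.1 and 73.3) but overlapped those of SDHBKO cells (58.5, 36.1 and 63.2). CS and ACO1, the cytosolic aconitase that also acts as an iron regulatory protein, had log2 fold changes between -0.31 and 0.08 over the 3 comparisons, and none was called.

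From 2-oxoglutarate to oxaloacetate, 7 of 10 genes were tested and none was called. SUCLG1 (ENSG00000163541, chr2:84423528-84460045, minus strand, GRCh38) was measured at 97.2 and 82.3 CPM in parental cells, 116, 165 and 108 CPM in SDHBKO cells, and 76.0, 92.5 and 63.5 CPM in SDHBKO SDHAlow cells. The SDHBKO libraries lay above all others. Its log2 fold change was 0.53 (SE 0.27, edgeR adjusted p = 0.31) in SDHBKO cells against parental cells and -0.74 (SE 0.23, adjusted p = 0.18) in SDHBKO SDHAlow against SDHBKO cells. The latter passed only without SDHBKO SDHAlow replicate 2 (log2 fold change -0.91, adjusted p = 0.035), among 18 alternative settings whose adjusted p ranged from 0.035 to 0.43.

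OGDH, the first subunit of the 2-oxoglutarate dehydrogenase complex, had 67.1 and 79.6 CPM in parental cells, 71.2, 133 and 123 CPM in SDHBKO cells, and 77.2, 82.8 and 76.9 CPM in SDHBKO SDHAlow cells. SDHBKO replicates 2 and 3 were above all other libraries, and SDHBKO replicate 1 was within the parental range. The fitted difference between SDHBKO and parental cells was 0.58 (SE 0.28, edgeR adjusted p = 0.28). DLST, the succinyltransferase of the same complex, had a difference of 0.63 (SE 0.35, adjusted p = 0.48) between SDHBKO SDHAlow and parental cells, and the groups did not overlap.

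FH, fumarase, which acts just after complex II, was highest in SDHBKO SDHAlow cells. It had 24.3 and 37.2 CPM in parental cells, 41.0, 38.9 and 22.7 CPM in SDHBKO cells, and 57.9, 52.2 and 52.4 CPM in SDHBKO SDHAlow cells. These last libraries lay above the 5 others, with log2 differences of 0.67 (SE 0.30, edgeR adjusted p = 0.38) from SDHBKO cells and 0.82 (SE 0.35, adjusted p = 0.32) from parental cells, neither of which passed.

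MDH2 (ENSG00000146701, chr7:76048051-76067508, plus strand, GRCh38) catalyzes the last step, from malate to oxaloacetate. It had 1195 and 1288 CPM in parental cells, 985, 917 and 834 CPM in SDHBKO cells, and 961, 798 and 1171 CPM in SDHBKO SDHAlow cells. Both parental libraries were above all others. The log2 difference between SDHBKO and parental cells was -0.44 (SE 0.20, 95% interval -0.87 to -0.02, edgeR adjusted p = 0.26). With the most counts of the list, this gene had a narrow interval, and a halving lay outside it. MDH1 was also lower in SDHBKO SDHAlow than in parental cells, at a difference of -0.85 (SE 0.45, adjusted p = 0.45), on 11 to 19 counts per library. D2HGDH, which returns D-2-hydroxyglutarate to 2-oxoglutarate, overlapped between all groups.

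**Figure D3:**
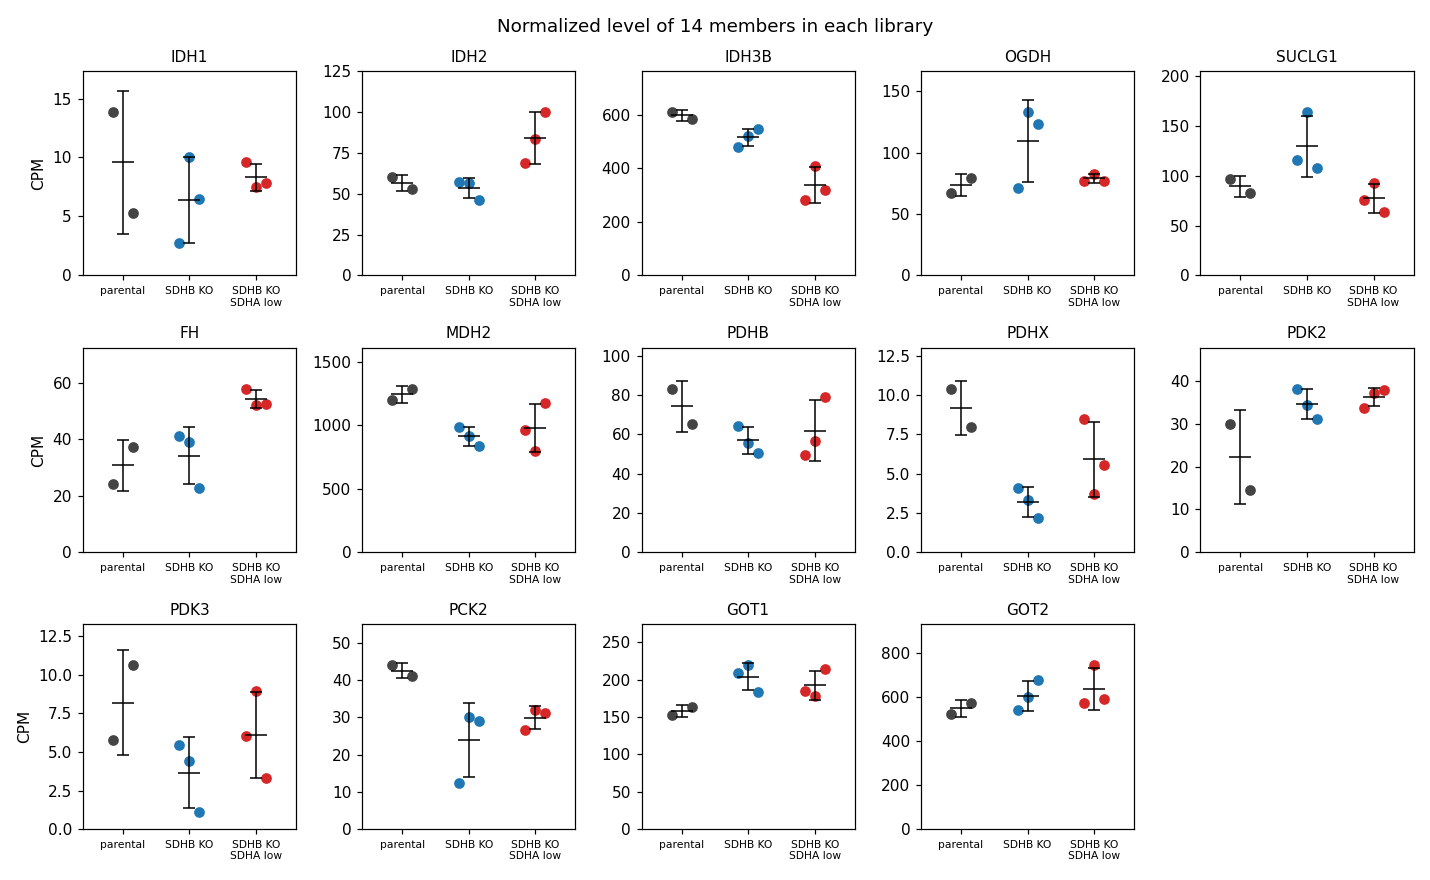
Normalized level in CPM of 14 genes in each library (points), with the mean and SD of each group, for 2 parental, 3 SDHBKO (SDHB KO) and 3 SDHBKO SDHAlow (SDHB KO SDHA low) libraries, each panel with its own axis from 0. IDH3B is lowest, and IDH2 and FH are highest, in SDHBKO SDHAlow libraries, while SUCLG1 is highest in SDHBKO libraries.

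Pyruvate dehydrogenase links glycolysis to the cycle, and its kinases switch it off by phosphorylation. Of its 9 genes, counted without the shared DLD, 6 were tested and none was called in any comparison. PDHB, the beta subunit of the first component and the most abundant of them, had 83.3 and 65.0 CPM in parental cells, 64.3, 55.6 and 50.7 CPM in SDHBKO cells, and 49.5, 56.7 and 79.1 CPM in SDHBKO SDHAlow cells. The parental libraries lay just above the SDHBKO libraries, with a log2 difference of -0.39 (SE 0.29, edgeR adjusted p = 0.51). PDHX, which anchors DLD in the complex, was counted 9 and 6 times in parental cells, 3, 3 and 2 times in SDHBKO cells, and 7, 5 and 5 times in SDHBKO SDHAlow cells. Its fitted difference between SDHBKO and parental cells was the largest in size among the 27 genes tested, -1.51, but an interval of -3.00 to -0.03 (edgeR adjusted p = 0.27).

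Among the kinases, PDK2 was higher in all SDHBKO and SDHBKO SDHAlow libraries than in parental ones, with 30.1 and 14.6 CPM in parental cells, 38.3, 34.5 and 31.3 CPM in SDHBKO cells, and 33.8, 37.3 and 37.9 CPM in SDHBKO SDHAlow cells. The difference was 0.61 (SE 0.38, edgeR adjusted p = 0.43) in SDHBKO and 0.68 (SE 0.37, adjusted p = 0.47) in SDHBKO SDHAlow cells. Without parental replicate 1, the higher of the parental libraries, these were 1.24 (adjusted p = 0.50) and 1.31 (adjusted p = 0.87). PDK3 was counted 5 and 8 times in parental cells, 4, 4 and 1 times in SDHBKO cells, and 5, 12 and 3 times in SDHBKO SDHAlow cells, with a difference of -1.16 (SE 0.77, edgeR adjusted p = 0.46) in SDHBKO against parental cells. The fitted values of PDK2 and PDK3 thus had opposite signs in SDHBKO cells, and neither was called. The 3' ends of PDHA1, DLAT and PDK2 overlap exons of MAP3K15, PIH1D2 and SAMD14 on the other strand, and the strand setting of the counting is not given in the sources used here, so their counts are uncertain.

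Of the 5 anaplerotic genes and malic enzymes, PC, PCK2 and ME3 were tested. PCK2, the mitochondrial phosphoenolpyruvate carboxykinase, which takes oxaloacetate out of the cycle, had 44 and 41.2 CPM in parental cells, 12.3, 30.0 and 29.1 CPM in SDHBKO cells, and 26.6, 32.1 and 31.2 CPM in SDHBKO SDHAlow cells. Both parental libraries lay above all 6 others. The log2 difference between SDHBKO and parental cells was -0.81 (SE 0.38, edgeR adjusted p = 0.26), to which SDHBKO replicate 1 contributed the lowest value. PC, pyruvate carboxylase, which makes oxaloacetate from pyruvate, had 12.7 and 23.9 CPM in parental cells, 21.9, 31.1 and 29.1 CPM in SDHBKO cells, and 29.0, 20.9 and 12.3 CPM in SDHBKO SDHAlow cells. The groups overlapped, and its difference of 0.60 between SDHBKO and parental cells had an interval of -0.34 to 1.54 (edgeR adjusted p = 0.53). ME3, a mitochondrial malic enzyme, was higher in SDHBKO cells than in both other groups without overlap, but differed by 0.50 (SE 0.40, adjusted p = 0.56) from parental cells.

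The 4 genes of glutamate and aspartate metabolism were all tested, and none was called. GOT1, the cytosolic enzyme known to make aspartate when respiration is impaired, had 153 and 163 CPM in parental cells, 209, 219 and 183 CPM in SDHBKO cells, and 185, 178 and 214 CPM in SDHBKO SDHAlow cells. The 6 libraries of edited cells lay above both parental ones. The log2 difference was 0.37 (SE 0.22, 95% interval -0.09 to 0.83, edgeR adjusted p = 0.41) in SDHBKO and 0.28 (SE 0.22, interval -0.18 to 0.74, adjusted p = 0.65) in SDHBKO SDHAlow cells. GOT2 had 521 and 573 CPM in parental cells, 540.5, 598 and 676 CPM in SDHBKO cells, and 569.6, 742 and 589.5 CPM in SDHBKO SDHAlow cells. Its groups overlapped, and the difference between SDHBKO and parental cells was 0.15 (interval -0.28 to 0.58, edgeR adjusted p = 0.78), so a doubling lay outside the interval. All 4 genes, with GLUD1, glutamate dehydrogenase, and GPT2, were fitted above 0 in SDHBKO against parental cells, by 0.07 (GLUD1, SE 0.52) to 0.37. Of all genes tested, 49.9% were above 0 in this comparison, and the 4 values share the same parental libraries. In the same comparison, 6 of the 7 genes from citrate to 2-oxoglutarate were fitted below 0. These signs were not tested.

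The promoter sequences of the list were searched for known motifs. The RefSeq table (GRCh38.p14), which gives 250 bases before to 50 after the start of each gene, held 32 of the 35 genes. The windows of IDH3B, the gene called, of SUCLG1, which had the lowest fitted value in SDHBKO SDHAlow against SDHBKO cells, and of MDH2, the most abundant, are printed 5' to 3' on the strand of the gene, with motif matches in capitals. They lie at chr20:2664167-2664466 (minus strand), chr2:84459231-84459530 (minus strand) and chr7:76047856-76048155 (plus strand). Capitals mark an ETS motif in IDH3B and MDH2 and an NF-Y motif, on the other strand, in SUCLG1.
IDH3B: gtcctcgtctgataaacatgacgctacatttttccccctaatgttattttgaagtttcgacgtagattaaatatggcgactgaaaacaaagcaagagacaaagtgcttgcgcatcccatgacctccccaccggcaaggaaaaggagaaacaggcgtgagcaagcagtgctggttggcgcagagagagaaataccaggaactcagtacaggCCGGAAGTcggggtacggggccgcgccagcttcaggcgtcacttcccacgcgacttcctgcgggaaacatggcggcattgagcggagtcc
SUCLG1: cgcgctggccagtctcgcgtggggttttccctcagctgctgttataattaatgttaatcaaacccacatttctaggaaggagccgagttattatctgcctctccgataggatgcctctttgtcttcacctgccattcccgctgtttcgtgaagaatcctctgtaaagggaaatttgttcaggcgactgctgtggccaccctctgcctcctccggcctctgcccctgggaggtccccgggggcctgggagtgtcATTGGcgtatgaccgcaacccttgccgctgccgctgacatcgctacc
MDH2: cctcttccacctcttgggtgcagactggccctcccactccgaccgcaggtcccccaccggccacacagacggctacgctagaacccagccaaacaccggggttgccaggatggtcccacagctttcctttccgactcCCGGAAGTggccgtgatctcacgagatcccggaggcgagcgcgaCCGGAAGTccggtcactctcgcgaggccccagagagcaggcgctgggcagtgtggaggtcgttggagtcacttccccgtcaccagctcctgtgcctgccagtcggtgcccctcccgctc

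Each motif was searched on both strands. The ETS motif (CCGGAAGT) was found in 3 of the 32 promoters (9.38%), those of DLST, IDH3B and MDH2, against 4.14% of all 35116 promoters in the table. The NF-Y motif (CCAAT) was in 18 of 32 (56.2%), against 34.6% of all. The NRF1 motif (GCGC, any 2 bases, GCGC) was in 5, against 8.32% of all, and the core of the hypoxia response element (ACGTGC) in 5, DLAT, IDH1, IDH3G, PDHB and PDK3, against 6.89%. The E-box (CACGTG) was in 2 and the ATF4 composite motif (TGATGNAA) in 1, GOT1, against 7.26% and 3.62% of all. The 3 windows printed held no other of these motifs. The share of all promoters was not limited to protein-coding genes or to genes measured here, so it is not a background of like genes, and no enrichment was tested. A match describes these letters only and is not a binding site.

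Genes next to the list were counted in the same way. These further lists were chosen with earlier results of these data known, so a count set against all genes is a description and no test of a list. Of 9 mitochondrial carriers of TCA metabolites and related substrates, 6 were tested, and 4 were called in SDHBKO cells against parental cells, against 5.54% of all genes tested. SLC25A1, which exports citrate, fell by 1.51 on the log2 scale (SE 0.23, edgeR adjusted p = 0.0027), from 442 and 496 CPM in parental cells to 120.4, 210.1 and 161 CPM in SDHBKO cells, and had 296, 347 and 394 CPM in SDHBKO SDHAlow cells. SLC25A10, the dicarboxylate carrier, and SLC25A22, a glutamate carrier, were lower too, by log2 fold changes of -0.86 (adjusted p = 0.099) and -1.52 (adjusted p = 0.050). SLC25A11, which exchanges 2-oxoglutarate for malate, was higher by 0.88 (adjusted p = 0.058). In SDHBKO SDHAlow against SDHBKO cells, SLC25A1 was higher by 1.07 (adjusted p = 0.014) and SLC25A11 lower, with a log2 fold change of -1.21 (adjusted p = 0.0071), so that 2 of 6 were called where 1.51% of all genes tested were. In SDHBKO SDHAlow against parental cells 0 of 6 carriers were called by edgeR, against 0.914% of all genes tested. By the same test 1 carrier had an unadjusted p below 0.05, a cut that was not counted over all genes. Whether carriers and enzymes differ from each other in this was not tested.

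Over all genes tested, edgeR called 5.54% in SDHBKO against parental, 1.51% in SDHBKO SDHAlow against SDHBKO and 0.914% in SDHBKO SDHAlow against parental cells. At these shares, few or no calls among 5 or 7 genes say little about a list. Among 8 genes of complex II and its assembly, 5 were tested, and SDHA alone, the knockdown target, was called, in both comparisons of SDHBKO SDHAlow cells. Of 9 genes of glutamine and aspartate use, 5 were tested, with 0 called by edgeR and 2, 0 and 2 at an unadjusted p below 0.05 in the 3 comparisons. The unadjusted cut was not counted over all genes. Of 13 neighbouring enzymes, 7 were tested, and LDHB, a lactate dehydrogenase subunit, was lower in SDHBKO SDHAlow than in parental cells (log2 fold change -1.17, SE 0.26, adjusted p = 0.067).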

How the data were processed

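RNA of 8 samples of MDA231 cells and sublines was measured by 3' end sequencing. The authors trimmed reads (Trimmomatic), took out those of ribosomal and mitochondrial RNA (Sortmerna), aligned the rest to GRCh38 (release 87) with STAR 2.5.2b, as the submitters' processing notes also name it, and deposited raw counts per gene. The authors also deposited normalized counts, a signal divided by a size factor per sample. In these, SDHBKO replicates 1 and 3 hold the raw counts of replicates 3 and 1, so only raw counts were used. Reads mapped to several places are not in the gene counts, and 24 pseudogenes of 11 members were at 0 counts.

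Genes with a mean normalized count above 5 were tested with edgeR 4.0.16 in R 4.3.3 (TMM, quasi-likelihood F test, all 8 samples and 3 groups in 1 fit), adjusted by the Benjamini-Hochberg method over 7550 genes and called below 0.1. CPM are normalized by TMM over these genes. The residual degrees of freedom were 5. Scripts were tested on simulated data. DESeq2 1.42.0, other filters, size factors, thresholds and groups, the replicate number as a block, a thinned library and each library left out were alternatives, and an offset for GC content was chosen after seeing the data. The members and lists were chosen with earlier results of these data known. Named members were those called, those whose groups did not overlap with an absolute log2 fold change of at least 0.5 in SDHBKO against parental or SDHBKO SDHAlow against SDHBKO cells, and, per role, those of largest change in SDHBKO against parental cells and of highest level. PDK1, CS, ACO1, IDH3A, IDH3G, DLST, MDH1, ME3, PC, GLUD1 and GPT2 fall outside this rule, and their values were added after they were seen. Members below the filter are given as ranges of counts. Gene positions and names come from GENCODE release 44 (GRCh38). Intervals of log2 fold changes are 95% intervals of the fit, and floors of 3 counts cover counting error only.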

Additional observations from a re-analysis of the deposited data

Results flagged for a closer look

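The share of reads that mapped to several places, which the gene counts leave out, was higher in SDHBKO libraries, with a mean of 15.07% (14.5% to 16.1%), than in the 2 parental libraries (10.2% to 10.9%) or the 3 SDHBKO SDHAlow libraries (9.72% to 12.3%). It was picked out because these reads enter no comparison and lie above the control samples. Its part in the values of the TCA cycle genes was not tested.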

How the results depend on the processing

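In SDHBKO against parental cells, 0 members were called in every alternative run. In SDHBKO SDHAlow against SDHBKO cells, the count was 1 (IDH3B) with DESeq2 and 0 to 2 over the leave-one-out fits, where 2 (SUCLG1 and IDH3B) were called only without SDHBKO SDHAlow replicate 2. In SDHBKO SDHAlow against parental cells, the count was 0 in place of 1 at an adjusted p of 0.05, with only the 2 groups compared, with the deepest library thinned and with the replicate block, under either numbering of SDHBKO replicates 1 and 3, and 0 to 1 over the leave-one-out fits. Same-numbered samples did not deviate together (mean r of -0.07 over 7 pairs, from -0.27 to 0.09), and the replicate block gave 199, 59 and 12 calls over all genes, against 418, 114 and 69. Over all genes, leaving out 1 library gave 0 to 833, 39 to 362 and 4 to 172 calls, with 0 without parental replicate 1 and 833 without SDHBKO SDHAlow replicate 2. These counts moved by over 1.5 times without either parental library, SDHBKO replicate 1 or 3, or SDHBKO SDHAlow replicate 2, and in the last 2 comparisons also without SDHBKO SDHAlow replicate 1 or 3. Fitting only the 2 groups compared gave 773, 64 and 7, an adjusted p of 0.05 gave 171, 64 and 13, exchanged numbers in the block gave 94, 49 and 8, thinning gave 44 in the third comparison, and no filter gave 152 there. The cause was not tested. Of the log2 fold changes of named members, 719 values kept direction and side of the threshold, 13 uncalled values changed sign, none beyond 0.62 in size, 3 gained a call and 12, all of IDH3B, lost it. Values for which DESeq2 gave no adjusted p were counted as not called. Those at an adjusted p of 0.05 are the fold changes of the reported fit. In these libraries 8 of 35 genes had too few counts to be tested.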
